A study of Mus musculus with 1152 samples.

Results

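Connexins and pannexins are membrane proteins that join neighbouring cells or open them to the outside. Connexins assemble into hemichannels that dock between cells as gap junctions, through which ions and small signalling molecules pass along the endothelium. Pannexins form large-pore channels of the plasma membrane, through which ATP leaves the cell. In lymphatic endothelium Gja1 and Gja4 are known for their part in the formation of valves, and Gjc1 encodes a further connexin of blood vessels.

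The genes listed were Gja1, Gja4, Gja5, Gjc1 and Panx1, chosen by name. Of these 5 members, 4 were measured among the 23168 genes of the table, and Gja5 was not analysed here. The 4 measured members were read in every lymphatic endothelial cell (LEC) analysed, which made 56.9% of those labelled. All were of the group of aged c57bl/6 mice of both sexes, with no genetic change or drug named. The LECs had been taken from the mucosa that holds the nasopharyngeal lymphatic plexus (NPLP), sorted as CD31+ PDPN+, and sequenced by Smart-Seq3, which reads whole transcripts of single cells in plate wells. Tissue of several mice had been pooled and no label tied a cell to a mouse, so the cells made 1 sample with no replicates, and no test between groups was possible.

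Each cell held 7046 to 10727631 reads (median 148203) and 2006 to 7679 detected genes. A gene was called detected at any value above 0. Since detection depends on depth, shares are also given for the 86.6% of cells with at least 20000 reads, after each was thinned to 20000 reads. Brackets hold exact (Clopper-Pearson) 95% intervals, which cover counting error only. The 8 genes listed for lymphatic identity were detected in 87.7% (Ccl21a) of cells or more, with Flt4 and Mmrn1 in every cell and Prox1 in 97.1%. Among the 8, Pdpn and Pecam1 (CD31) encode the proteins used for the sort, so their detection was set by it. Cdh5 is named by the study as a marker of all endothelial cells. Markers of other cell types were present at various levels. The 6 mural markers were each detected in 0.610% to 3.51% of cells, and the 5 haematopoietic markers in 0.457% (Cd3e) to 9.60% (Fcer1g), with Lyz2 in 5.79% and Ptprc in 0.915%. Dcn, a fibroblast gene, was detected in 30.03% of cells, while the other 4 fibroblast markers were each in 1.68% to 2.44%.

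The members differed widely in how many cells carried them. Gja1 was detected in 94.8% (92.8 to 96.4) of cells. Gja4 was detected in 57.8% (53.9 to 61.6). Gjc1 was detected in 84 cells, or 12.8% (10.3 to 15.6). Panx1 was detected in 16 cells, or 2.44% (1.40 to 3.93). The intervals of these 4 shares were apart, and the order held at equal depth, where the shares were 86.4% (83.4 to 89.2) for Gja1, 43.1% (39.02 to 47.3) for Gja4, 7.04% (5.08 to 9.47) for Gjc1 and 1.06% (0.389 to 2.28) for Panx1. Over the 20981 genes with any read, the median gene was detected in 7.62% of cells.

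**Figure D1:**
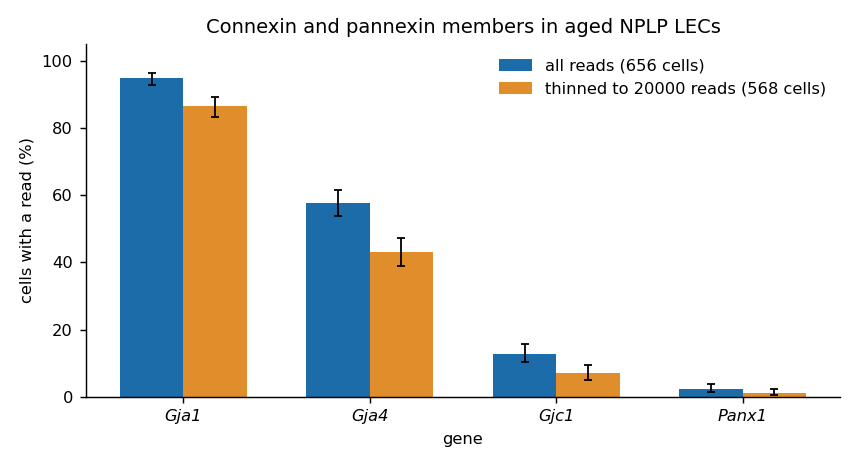
Share of cells (%, vertical axis) with a read of each of the 4 measured members, over all reads (all cells) and after thinning to 20000 reads (86.6% of cells). Error bars are exact 95% intervals; the bars fall from 94.8% for Gja1 to 2.44% for Panx1 with all reads.

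Other genes of the family were scarce among those reported here. Gjd3 was detected in 1.37% of cells and Gjc3 in 1.22%. Gjb2, Gjb1 and Gja6 were each detected in 3 to 6 cells.

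The mean log levels, not corrected for transcript length, followed the same order as the shares. The values are natural logs of 1 plus reads per 10000 reads of the cell. The lowest Gja1 value was 0, the median 1.59 and the highest 3.82, with a mean of 1.504 ± 0.83 (SD over cells). Its middle 50% of cells lay between 0.92 and 2.09. The lowest Gja4 value was 0, the median 0.04, the upper quartile 1.17 and the highest 3.88 (mean 0.62 ± 0.85). Its highest cells reached the highest Gja1 values, while 42.2% of cells held no read of it. Gjc1 ranged from 0 to 1.67 (mean 0.06 ± 0.20), and its median over the cells that held it was 0.40. Panx1 ranged from 0 to 1.69 (mean 0.01 ± 0.13), with a median of 0.41 over its 16 cells. In 9 of those 16 cells Panx1 rested on 1 or 2 reads, as Gjc1 did in 32 of its 84 cells. Gja4 did so in 99 of the cells that held it (57.8% of all cells). Gja1 did so in 26 of the cells that held it (94.8% of all cells).

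A comparison of levels between genes needs the transcript length, and the length chosen decided the order of Gja1 and Gja4. In the GENCODE M21 annotation (GRCm38), Gja1 lies on chromosome 10 at 56377330 to 56402513 on the plus strand, with 10.3 kb of exon over all transcripts and 3.18 kb in its principal transcript. Gja4 lies on chromosome 4 at 127311421 to 127314039 on the minus strand, with 1.69 kb either way. Per kilobase of all exons, the mean linear level was 0.508 reads per 10000 for Gja1 and 1.20 for Gja4. Per kilobase of the principal transcript, it was 1.64 for Gja1 and 1.20 for Gja4. Gjc1, on chromosome 11 at 102799579 to 102819700, had a mean linear level of 0.0180 or 0.0390 reads per 10000 per kilobase by these lengths, and Panx1, on chromosome 9 at 15002128 to 15045478, had 0.00460 or 0.00484. Both lie on the minus strand. No other gene of the annotation overlapped any of the 4 members on either strand.

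With all reads detection was higher in the deepest cells than in the shallowest, which was not so for Gja1 and Gja4 at equal depth. With cells in 4 equal groups by depth, Gja1 was detected in 90.9% of the shallowest 25% (median 18620 reads) and in 98.2% of the deepest. Gjc1 was detected in 18.7% (14.5 to 23.4) of the cells with at least 4000 detected genes, against 12.8% of all cells. Gja4 was detected in 42.7%, 63.4%, 51.2% and 73.8% of cells from the shallowest to the deepest group, which was not a steady rise. At 20000 reads the Gja4 shares in these groups were 44.7%, 53.7%, 34.1% and 40.9%, with the second group above the third by intervals that did not overlap (45.7 to 61.5 against 26.9 to 41.9). No label named a plate. Over 12 runs of 96 consecutive cell numbers, of 18 to 83 analysed cells each, Gja4 at 20000 reads was found in 25% to 51.1% of cells and Gja1 in 80.5% to 97.1%, and the highest and lowest runs of each gene had overlapping intervals. The mean Gja1 level of a run went from 1.25 (run 3) to 1.81 (run 10). For Gja4 the run means went from 0.44 (run 9) to 0.80 (run 4).

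How many members a cell held depended on its depth. With all reads, exactly 1 of the 4 members was detected in 38.4% of cells, 2 in 49.4%, 3 in 9.60% and all 4 in 3 cells. The share of cells with 2 or more members was 59.5% with all reads and 40.7% at 20000 reads. Gja1 with Gja4 was the commonest combination with all reads, in 44.8% of cells, followed by Gja1 alone in 35.5%. At 20000 reads this order turned, with Gja1 alone in 46.5% and Gja1 with Gja4 in 32.7%. With all reads, Gja4 without any other member was seen in 19 cells. The 14 cells with none of the members had a median of 36030 reads, and the 34 cells without Gja1 had a median of 46030 reads against 158392 in the cells with it. Cells that lacked Gja1 were thus shallower than those that held it.

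Gja1 and Gja4 were detected with little regard to each other. Of the Gja4 cells, 94.7% (91.97 to 96.7) held Gja1, and of the cells without Gja4, 94.9% (91.7 to 97.2) did. As a share of the Gja1 cells, 57.7% held Gja4. At 20000 reads Gja1 was found in 84.1% (78.9 to 88.4) of Gja4 cells and in 88.2% (84.2 to 91.5) of the others, with overlapping intervals. Across cells, Spearman's rho between their levels was -0.09 over all cells and -0.11 over those thinned to 20000 reads. These points share 1 pool and, before thinning, differ in depth. In the 54.7% of cells with both, the median ratio of Gja1 to Gja4 was 0.426 per kilobase of all exons and 1.37 per kilobase of the principal transcript, so neither gene could be called the more abundant.

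**Figure D2:**
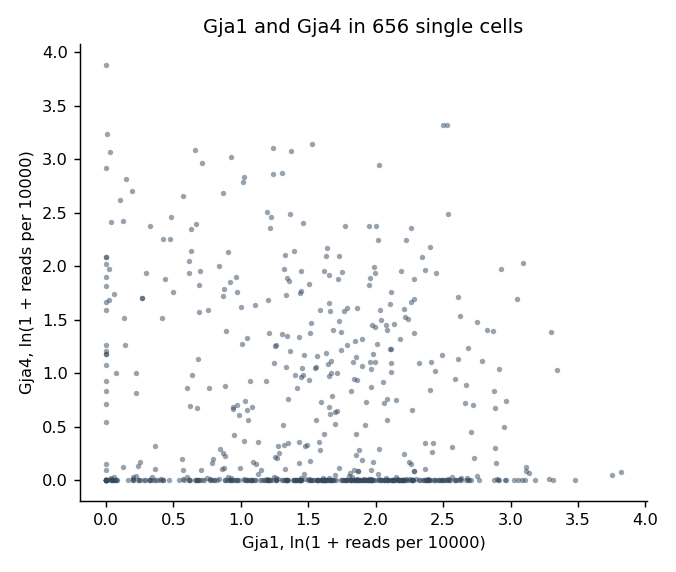
Level of Gja4 (vertical axis) against Gja1 (horizontal axis) in each cell, both as the natural log of 1 plus reads per 10000; each point is a cell. The points spread over the whole plane with a row of Gja4 zeros, and rho was -0.09.

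The sparser members lay mostly in cells that also held the common ones, but most cells without them held the common ones too. Of the 84 Gjc1 cells, 83 held Gja1, against 94.2% of the cells without Gjc1. Gja4 was in 56 of them, or 66.7% (55.5 to 76.6), against 56.5% (52.3 to 60.6) of the cells without Gjc1. At 20000 reads Gja1 was found in 90% (76.3 to 97.2) of 40 Gjc1 cells and in 86.2% of the others. Gja4 was found in 52.5% (36.1 to 68.5) and 42.4%. All 16 Panx1 cells held Gja1, against 94.7% of the cells without Panx1. Of these 16 cells, 13 held Gja4 and 4 held Gjc1, against 57.2% and 12.5% of the cells without Panx1. At equal depth only 6 cells held Panx1, and 3 of them held Gja4, against 43.1% of the others. All of these comparisons had overlapping intervals at equal depth.

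To place the members among LEC types, the cells were clustered with every connexin and pannexin gene left out of the variable genes, so that none defined a cluster. Of the 5 clusters, the first (32.2% of cells) was Ptx3+ capillary-like, with all 6 of its markers raised, among them Stab2 and Itih5. The second (26.2%) was led by Ahsg, Spp1, Kng2, Apoe and Ephx2 and had the precollecting markers Foxp2, Apoe and Bmp4 raised; it is called the Foxp2-Apoe-Bmp4 cluster. The third (15.9%), led by Tppp3, Fbln7 and Fndc1, was Ptx3- capillary-like, with Fndc1, Reln and Ccl21a raised. The fourth (14.5%), led by Pthlh, Anxa8, Ptn and Anxa3, also had 3 of the Ptx3- capillary markers raised and is called the Ptn-Anxa3-Stc1 cluster; these markers had been listed with earlier results of these cells known. The fifth (11.3%) was valve-like, with Cldn11, Gata2, Neo1 and Esam raised and Fxyd2, Gdf15 and Gdf10 leading. The Ptn-Anxa3-Stc1 cluster was the shallowest (median 65272 reads, against 127055 to 198936 in the others). Thinning left out 8 to 32 cells of each cluster.

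In this clustering Gja4 was found most often in the Foxp2-Apoe-Bmp4 and Ptn-Anxa3-Stc1 clusters and least often in the Ptx3+ capillary-like and valve-like clusters. At 20000 reads it was detected in 55.1% (46.97 to 63.1) of the Foxp2-Apoe-Bmp4 cluster. The Ptn-Anxa3-Stc1 cluster had 53.8% (42.2 to 64.97), and the Ptx3- capillary-like cluster 40.2% (29.9 to 51.3). The Ptx3+ capillary-like cluster had 33.5% (26.7 to 40.9) and the valve-like cluster 31.8% (20.9 to 44.4). The interval of the Foxp2-Apoe-Bmp4 cluster lay above those of the Ptx3+ capillary-like and valve-like clusters and overlapped the other two. When the cells were clustered without regression, the valve-like cluster of 38 cells had 34.3% (19.1 to 52.2) and the precollecting-like one 59.2% (48.8 to 69.01), with overlapping intervals. In the main clustering, the interval of the Ptn-Anxa3-Stc1 cluster lay above the Ptx3+ capillary-like one alone. With all reads the Gja4 shares were 70.9% in the Foxp2-Apoe-Bmp4 cluster, 63.2% in the Ptn-Anxa3-Stc1 cluster, 58.7% in the Ptx3- capillary-like cluster, 51.4% in the valve-like cluster and 46.4% in the Ptx3+ capillary-like cluster.

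**Figure D3:**
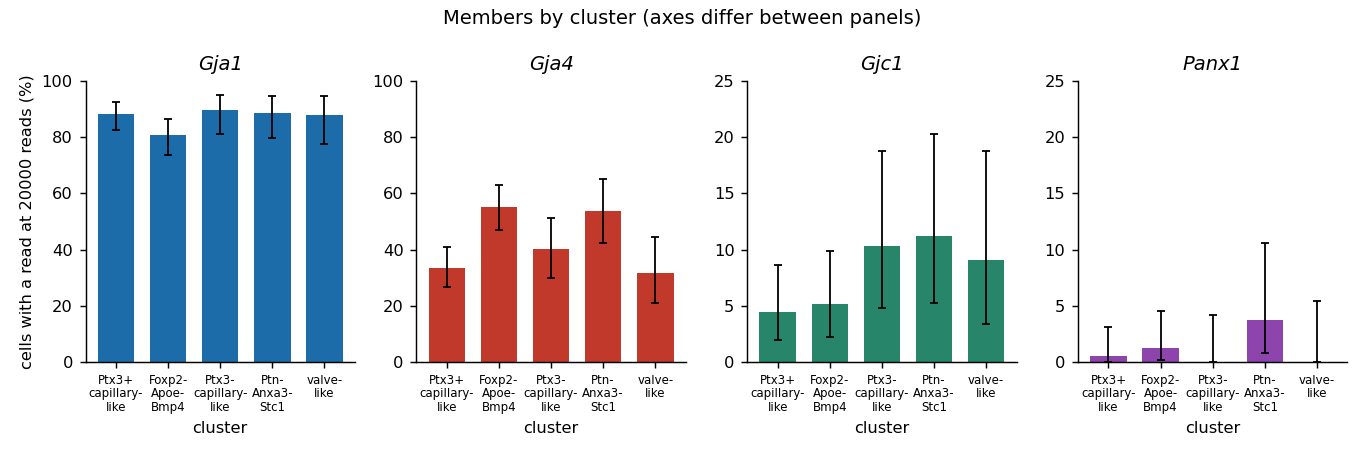
Share of cells (%, vertical axis) with a read of Gja1, Gja4, Gjc1 and Panx1 in each of the 5 clusters after thinning to 20000 reads; bars are shares and error bars exact 95% intervals, and the last 2 panels have a shorter axis. Gja4 runs from 31.8% in the valve-like cluster to 55.1% in the Foxp2-Apoe-Bmp4 cluster, while Gja1 lies between 80.8% and 89.7%.

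The levels gave the same picture for Gja4. Its mean level was 0.93 ± 0.98 in the Foxp2-Apoe-Bmp4 cluster, 0.66 ± 0.81 in the Ptn-Anxa3-Stc1 cluster, 0.58 ± 0.78 in the Ptx3- capillary-like cluster, 0.46 ± 0.78 in the Ptx3+ capillary-like cluster and 0.38 ± 0.65 in the valve-like cluster (SD over cells). The cells of all clusters overlapped, and each cluster held cells without a Gja4 read. The highest and lowest cluster means of Gja4 differed by 0.55 on the log scale, while this difference had a median of 0.10 over the 9666 genes found in 10% of cells or more. Those genes were not matched to Gja4 in level or detection.

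**Figure D4:**
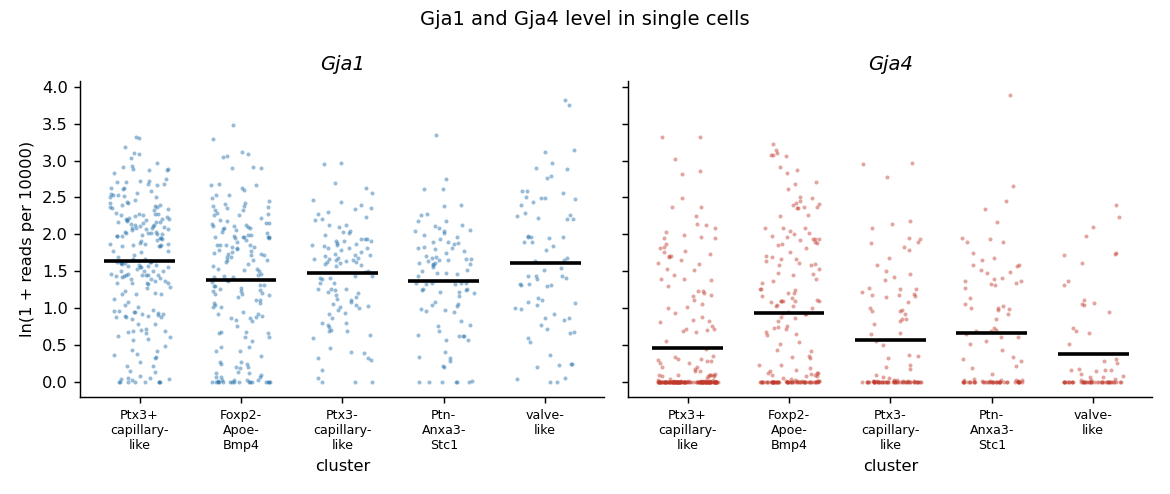
Level (natural log of 1 plus reads per 10000, vertical axis) of Gja1 and Gja4 in every cell of the 5 clusters; points are cells and bars are cluster means. The Gja4 mean falls from 0.93 in the Foxp2-Apoe-Bmp4 cluster to 0.38 in the valve-like cluster, with the cells of all clusters overlapping.

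Gja1 was found widely in every cluster. At 20000 reads it was detected in 89.7% (81.3 to 95.2) of the Ptx3- capillary-like cluster, 88.8% (79.7 to 94.7) of the Ptn-Anxa3-Stc1 cluster, 88.3% (82.6 to 92.6) of the Ptx3+ capillary-like cluster, 87.9% (77.5 to 94.6) of the valve-like cluster and 80.8% (73.7 to 86.6) of the Foxp2-Apoe-Bmp4 cluster. All of these intervals overlapped. The cluster means of the Gja1 level ran from 1.37 in the Ptn-Anxa3-Stc1 cluster to 1.64 in the Ptx3+ capillary-like cluster. This difference of 0.27 was also above the median of 0.10 over the same unmatched genes. The mean Gja1 levels of the runs of cell numbers lay wider apart, from 1.25 to 1.81. The part of the runs in the cluster means was not tested.

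Gjc1 and Panx1 were too sparse for an order of clusters. Gjc1 at 20000 reads was detected in 4.47% (1.95 to 8.62) of the Ptx3+ capillary-like cluster, 5.13% of the Foxp2-Apoe-Bmp4 cluster, 9.09% of the valve-like cluster, 10.3% of the Ptx3- capillary-like cluster and 11.2% (5.28 to 20.3) of the Ptn-Anxa3-Stc1 cluster, and all intervals overlapped. With all reads Gjc1 was in 22.97% (13.99 to 34.2) of valve-like cells and 8.06% (4.76 to 12.6) of Ptx3+ capillary-like cells, a gap not detectable at equal depth. Panx1 at 20000 reads was in 3 of 80 cells of the Ptn-Anxa3-Stc1 cluster and in 0 to 2 cells of each of the others.

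Gja4 is a gene by which the study told downstream from upstream valve cells, and it was therefore kept out of the valve markers here. With the finer resolution of 1.5, a pair of clusters had 4 valve markers raised each. The first, of 72 cells, had Cldn11, Foxc2, Gata2 and Clu raised, with Spp1 and Ahsg leading, and Gja4 was detected in 54.1% (40.8 to 66.9) of its cells at 20000 reads. The second, of 46 cells, had Cldn11, Gata2, Neo1 and Esam raised, with Fxyd2 and Gdf15 leading, and Gja4 was detected in 30.2% (17.2 to 46.1). These intervals overlapped. Gja1 was detected in 73.8% (60.9 to 84.2) and 83.7% (69.3 to 93.2) of the same clusters.

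Known regulators and partners of lymphatic connexins were then set against Gja4 cell by cell. The list held 20 genes of valve formation, flow sensing, Notch and ephrin signalling, cell junctions and connexin trafficking, each detected in 4.12% (Src) to 98.5% (Cav1) of cells. For 19 of them both the cells with and the cells without the gene numbered at least 20 at 20000 reads. The Gja4 share was higher in the cells with the gene for 14 of these and lower for 5, with a median difference of 8.54 percentage points. Over 10460 genes split in the same way, the median was 2.70 points and 66.3% of the differences were above 0. Intervals were apart for 5 of the 19 genes, while over all genes they were apart for 2.6%.

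Those 5 genes were Foxc2, Gata2, Efnb2, Cldn11 and Cav1. Foxc2, the forkhead factor of lymphatic valves, was detected in 53 of the thinned cells, of which 66.04% (51.7 to 78.5) held Gja4, against 40.8% (36.5 to 45.2) of the cells without Foxc2. Gata2, a zinc-finger factor of valve endothelium, gave 54.1% (46.01 to 62.01) against 38.9% (34.1 to 43.8). Efnb2, the ephrin ligand needed for valve formation, gave 51.9% (45.99 to 57.7) against 33.8% (28.2 to 39.7). Cldn11, a tight-junction claudin used as a valve marker, gave 51.01% (44.6 to 57.4) against 37.1% (31.8 to 42.6). Cav1, the caveolar coat protein, gave 44.9% (40.7 to 49.3) against 14.7% (4.95 to 31.1), the latter over 34 cells. Cav1 itself was found in 84.9% of the Ptx3+ capillary-like cluster, which was low in Gja4, and in 97.4% to 100% of the others. The part of the clusters in this gap was not tested. Prox1, the master factor of lymphatic identity, gave 43.3% against 41.2% over 34 cells, and Nfatc1, a calcineurin-dependent factor, 41.7% against 45.3%.

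**Figure D5:**
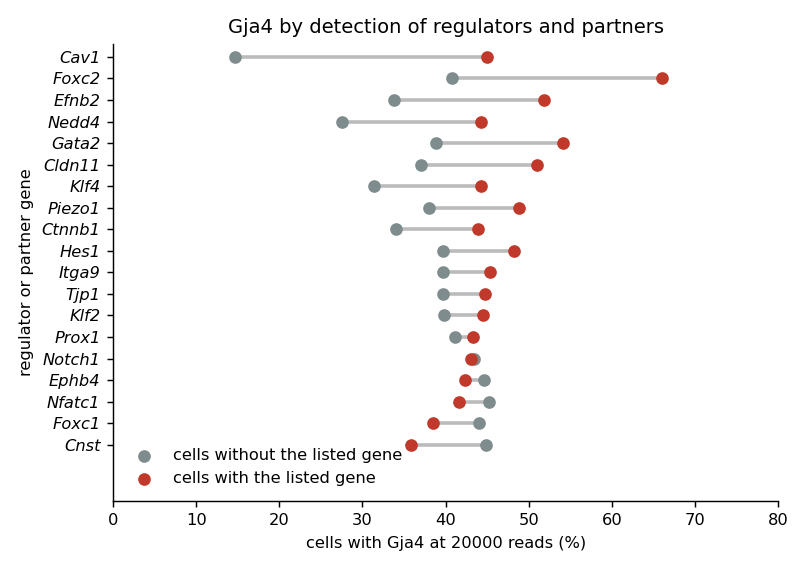
Share of cells with Gja4 at 20000 reads (%, horizontal axis) among cells with (red) and without (grey) a read of each of 19 regulator or partner genes (vertical axis), joined by a line. The widest gaps are those of Cav1 (30.2 points) and Foxc2 (25.3 points).

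The Gja1 shares lay closer together. The share was higher in the cells with the listed gene for 13 of the 19 genes and lower for 6. The median difference was 1.27 points against 2.45 over all genes, which were again unmatched. Intervals were apart for 0 of 19 (2.39% over all genes). Its share was 79.2% in the cells with Foxc2 and 87.2% in those without, and 84.2% against 88.2% for Cldn11, with overlapping intervals. Whether the splits of Gja1 and Gja4 differ was not tested.

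The valve-like cluster of the main clustering was low in Gja4 although Foxc2 and Cldn11 cells were high in it. Foxc2 at 20000 reads was most frequent in the Foxp2-Apoe-Bmp4 cluster (16.7%, 11.2 to 23.5), followed by the valve-like cluster (12.1%, 5.38 to 22.5), and least frequent in the Ptx3+ capillary-like cluster (3.35%). Efnb2 was found in 75.6% of the Foxp2-Apoe-Bmp4 cluster and 70% of the Ptn-Anxa3-Stc1 cluster, the pair of clusters high in Gja4, in 50% of the valve-like cluster, 37.9% of the Ptx3- capillary-like cluster and 29.6% of the Ptx3+ capillary-like cluster. Cldn11 was most frequent in the valve-like cluster (71.2%, 58.7 to 81.7), against 31.8% to 50% in the others. The cluster with the highest Cldn11 share thus had the lowest Gja4 share.

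Gja4 is also expressed in arterial blood endothelium. Of the arterial markers, Efnb2 and Bmx were more frequent in the pair of clusters high in Gja4, while Hey1 and Sox17 did not set this pair apart. Of 6 arterial markers, Gkn3 and Sema3g were not analysed here. For the other 4 (Sox17, Efnb2, Hey1 and Bmx), the summed linear level had a mean of 3.01 reads per 10000 in the Foxp2-Apoe-Bmp4 cluster and 2.96 in the Ptn-Anxa3-Stc1 cluster, against 1.06 to 2.29 in the others. Over single cells it ran from 0 to 15.6 and from 0 to 17.7 in those clusters, and from 0 to at most 17.8 in the others. Sox17, a defining arterial factor, was detected in 13 cells and in 1.16% and 1.05% of those clusters, while Prox1 was in 99.4% and 95.8% of them. At 20000 reads Bmx was in 35.9% and 42.5% of those clusters and in 11.2% to 28.7% of the others. Hey1 was most frequent in the Ptx3- capillary-like cluster (42.5%), followed by the Ptn-Anxa3-Stc1 cluster (33.8%). It was in 24.2% of the valve-like cluster, 21.8% of the Foxp2-Apoe-Bmp4 cluster and 10.6% of the Ptx3+ capillary-like cluster. With all reads Sox17 was most frequent in the Ptx3+ capillary-like cluster (4.27%). The 7 general blood endothelial markers ranged widely, with Gpihbp1 in 73.2% of cells, Plvap in 65.9%, Selp in 26.98%, Vwf in 10.4%, Rgcc in 6.25%, Flt1 in 2.44% and Esm1 in 3 cells. Their summed level was 4.51 and 4.52 reads per 10000 in the clusters high in Gja4 against 3.82 to 9.75 in the others. The part of these genes in the Gja4 result was not tested.

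The genes whose levels ran most closely with each member did so weakly. Among the 9666 genes found in 10% of cells or more, the highest Spearman rho with Gja4 were those of Tsc22d1 (0.23), Efnb2 (0.22), Nat8l (0.22), Bgn (0.21) and Comp (0.21), and Stab1 (-0.15) and Creb5 (-0.15) were among the lowest. Stab1 is a scavenger receptor of capillary LECs, and Bgn and Comp encode matrix proteins. The highest with Gja1 were Ralgapa2 (0.23), Ctsd (0.23), Ushbp1 (0.21), Mmrn1 (0.20) and Tmem2 (0.20), and the lowest was Vim (-0.18). Gja1 had a positive rho with all 8 lymphatic identity genes (median 0.14, against 0.02 over all genes), with Pdpn at 0.20 and Prox1 at 0.12. Gja4 had a positive rho with 3 of these 8 (median -0.06, against 0.03 over all genes). The pattern was not particular to identity genes. Of the 6 Ptx3+ capillary markers, 6 had a positive rho with Gja1 (median 0.13) and 0 with Gja4 (median -0.08). The genes behind the medians over all genes were not matched in detection. All points are cells of 1 pool and share its depth differences. For Gjc1 the 5 closest genes were Sidt2, Adrm1, Clpb, Gucy1b3 and Tmed1 (rho 0.17 to 0.18), and for Panx1 they were Pfn2, 2700062C07Rik, AW146154, Atic and Naaa (0.15 to 0.19), values that rest on few cells. After thinning, 0 of these 5 stayed among the closest 5 for Gjc1, with Sidt2 at a rho of 0.01, and 1 (AW146154) stayed for Panx1.

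Genes of ATP sensing and breakdown, the partners of pannexin channels, were each detected in a minority of cells or in none. P2ry1 and Adora2b were not analysed here. P2rx4, an ATP-gated cation channel, was in 34.5% (30.8 to 38.2) of cells. Adora2a, an adenosine receptor, was in 27.1%, and P2rx7, a further ATP-gated channel, in 10.2%. P2ry2 and Nt5e, the ectoenzyme that makes adenosine from AMP, were each in 1.83%. P2ry6, P2ry12 and Entpd1, the ectoenzyme that degrades ATP, had 0 cells with a read, which allows up to 0.457% of cells with a read of each (3 cells of all); this limits detection at these depths, not expression.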

How the data were processed

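Single LECs had been sorted into plates and made into Smart-Seq3 libraries from pooled mucosa; 656 of 1152 labelled cells were analysed. The tools named in the submitters' processing notes were STAR, featureCounts, Subread and Seurat 4.1.0, with mm10. The deposited values were read as the natural log of 1 plus reads per 10000, since their exponentials minus 1 summed to 10000 in every cell, although the methods name another log base. Each cell's lowest nonzero value stood for 1 read, which made 100% of values whole reads within 0.01. Of these, 79.9% were even and 3.98% were exactly 1 read, so 1 fragment may count as 2 reads; PCR copies were not collapsed.

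Cells with at least 20000 reads were thinned to 20000 reads without replacement, which kept 568 cells and left out 88. Clustering used Seurat 5.3.0 in R 4.3.3 (2000 variable genes by vst without connexin and pannexin genes, regression of total reads, mitochondrial share, dissociation and ribosomal scores, 15 principal components, Louvain at 0.7, the lowest resolution in steps of 0.1 that gave 5 clusters, of 211, 172, 104, 95 and 74 cells). A marker counted as raised at 1.5 times the mean of the other cells, with 0.1 reads per 10000 added, and a read in 10% or more of the cluster's cells. Names needed at least 3 raised markers and were not given where another class had more of the top 10 genes. Intervals were computed with scipy 1.17.1. Doublets were not called, as the wells had received single sorted cells. Read recovery, thinning, correlations and clustering were tested on simulated data. Named genes were the family genes detected in at least 1% of cells, fixed lists of regulators, purinergic genes and markers, the 5 genes most like each member and leading genes of clusters; the sparser family genes and the genes of lowest rho were named after their values were seen. Some genes that these rules name are not reported here. The members and lists were chosen with earlier results of these data known.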

Additional observations from a re-analysis of the deposited data

How the results depend on the processing

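No paired analysis was possible because all cells belonged to 1 group and came from 1 pool. Detection shares depended on depth and on the reads asked for. Asking for a log value above 1 gave 72.4% of cells for Gja1, 29.6% for Gja4, 1.22% for Gjc1 and 0.610% for Panx1. In cells with at least 4000 detected genes, Gja1 was in 98.4%, Gja4 in 67.1% and Gjc1 in 18.7%. Thinning to 20000 reads gave 86.4%, 43.1%, 7.04% and 1.06% for Gja1, Gja4, Gjc1 and Panx1, and it gave Gja1 in 84.1% of Gja4 cells. Chosen after seeing the data, a minimum of 3 reads gave 90.9%, 42.7%, 7.93% and 1.07%, with Gja1 in 91.8% of Gja4 cells, and thinning to 10000 read pairs gave 83.3%, 38.8%, 5.45% and 0.527%. The order Gja1, Gja4, Gjc1, Panx1 held under each of these settings. Asking for 2 or more reads, leaving out the 4 cells with reads of Xist and of a Y-linked gene, or leaving out the 50.8% of cells with a mural, fibroblast, haematopoietic, epithelial or glial marker kept each share within its interval. The first 2 of these could change little: 3.98% of nonzero values were exactly 1 read, and only 4 cells were left out. At resolution 1.5 the lowest Gja1 share of a cluster was 71.4%, over 42 cells, and no cluster was named precollecting-like. The highest and lowest Gja4 shares of a cluster ran from 54.5% to 59.2% and from 28.6% to 32.97% over the 6 clusterings. The lowest share was in the valve-like cluster in 3 of these, in a Ptx3+ capillary-like cluster when all genes could be variable, in a Ptx3- capillary-like cluster without regression (32.9%) and in an unnamed cluster at resolution 1.5. Cells with Cldn11, taken without clustering in place of the valve-like cluster, held Gja4 in 51.01%, against 31.8%; the cause was not tested. Of the 5 genes most like Gja1, 3 stayed among the closest 5 after thinning. For Gja4, 1 stayed after thinning and 3 with the number of detected genes regressed out. For Gjc1 0 of 5 and for Panx1 1 of 5 stayed after thinning. At 20000 reads, differences between clusters of the size seen for Gjc1 and Panx1 were not detectable.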
